A study of Rattus norvegicus with 15 samples.

Results

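The genes described here are 38 interferon-stimulated genes, members of the set that cells switch on when an interferon reaches its receptor, taken by symbol from the 34357 genes with an identifier in the deposited expression table. They were chosen by symbol, with the artery differences between genotypes in these libraries already known, so the artery differences between genotypes are given as a description without a test, while kidney and the 2 tissues are compared with one. RNA-seq of total RNA was made from Dahl salt-sensitive (SS) rats, an inbred strain with salt-sensitive blood pressure, in 15 libraries. The groups were 4 wild-type and 4 deletion libraries of mesentery artery, and 3 wild-type and 4 deletion libraries of kidney cortex, all titled male. The deletion rats, titled knockout, lack 30.4 kb of noncoding sequence (chromosome 2, 60825801 to 60856216, rn7 build) beside the gene of Npr3, the natriuretic peptide clearance receptor, and the comparison asks which genes respond to its loss. Age, diet, the number of founder lines and the zygosity of the deletion are not given in the sources used here. No label ties a library to its own animal, so p-values measure the spread between these libraries, which may be technical.

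Sensing of foreign nucleic acid is one of the triggers that make cells secrete type I interferons. Type I interferons bind the receptor pair Ifnar1 and Ifnar2, whose kinases Jak1 and Tyk2 start a relay of phosphorylation. A complex that includes Stat2 and Irf9 then binds the interferon-stimulated response element, which raises sensors, antiviral effectors and brakes on the pathway. Interferon gamma acts through its own receptor and through a different element, the gamma-activated site. Vessel wall and kidney cells carry these receptors and keep many of the target genes at a low level without infection.

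RefSeq promoter windows on the GRCr8 build, from 250 bases before to 50 bases after the start of each gene, were matched by symbol for 27 of the 38 genes. Usp18, Dhx58, Rig1, Adar, Ifit1, Rtp4, Isg15, Ifit2, Mx2, Zbp1 and Oas2 had no match. The core letters of the response element, GAAA followed after any 2 bases by GAAA, on either strand, lay in 17 of the 27 windows (63.0%), against 4.12% of the windows of 27457 genes and 4.06% without the 27. The letters TTCNNNGAA of the gamma-activated site, which read alike on both strands, lay in 5 of the 27 (18.5%) against 9.39% of all; in Bst2 the 2 motifs overlapped. A match is a run of letters and no measure of binding. The 100 bases before the start, with GRCr8 coordinates, are printed for 8 genes that represent the sensors, the relay and the effectors and hold the core letters, in capitals, and for Mx1, whose window held none.

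Ifih1, sensor (chr3:67683969-67684068, minus strand): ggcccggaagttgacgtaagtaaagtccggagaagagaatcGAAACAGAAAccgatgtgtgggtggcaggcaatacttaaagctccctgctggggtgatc
Irf7, relay (chr1:205800024-205800123, minus strand): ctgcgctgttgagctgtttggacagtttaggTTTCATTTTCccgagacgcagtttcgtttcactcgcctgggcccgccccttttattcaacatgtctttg
Oas1a, RNA effector (chr12:41330366-41330465, plus strand): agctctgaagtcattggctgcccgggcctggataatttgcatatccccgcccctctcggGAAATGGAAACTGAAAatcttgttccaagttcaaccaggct
Oas3, RNA effector (chr12:41439632-41439731, plus strand): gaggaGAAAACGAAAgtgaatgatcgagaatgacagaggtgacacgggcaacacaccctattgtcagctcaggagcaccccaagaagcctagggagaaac
Ifit3, RNA effector (chr1:241527226-241527325, plus strand): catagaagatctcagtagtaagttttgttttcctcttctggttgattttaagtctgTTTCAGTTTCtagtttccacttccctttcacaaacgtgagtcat
Gbp2, large GTPase (chr2:234005627-234005726, plus strand): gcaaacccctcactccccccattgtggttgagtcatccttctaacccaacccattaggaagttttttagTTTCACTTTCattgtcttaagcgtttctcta
Parp14, ADP-ribosylation (chr11:78408034-78408133, plus strand): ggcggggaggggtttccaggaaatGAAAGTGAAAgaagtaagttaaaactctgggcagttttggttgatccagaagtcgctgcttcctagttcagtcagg
Trim21, ubiquitin ligase (chr1:166399372-166399471, minus strand): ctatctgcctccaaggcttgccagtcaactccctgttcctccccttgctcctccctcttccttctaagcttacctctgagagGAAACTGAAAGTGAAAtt
Mx1, large GTPase (chr11:50294607-50294706, minus strand): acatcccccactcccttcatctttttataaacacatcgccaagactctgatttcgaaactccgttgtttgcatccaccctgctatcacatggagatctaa

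Oas1a and Trim21 each held 2 overlapping copies of the core letters, beginning 41 and 35 bases before the start in Oas1a and 18 and 12 bases before it in Trim21. Among the printed genes the copy farthest from the start was that of Oas3, at 95 bases, and Irf7, Ifit3 and Gbp2 carried it on the opposite strand.

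Levels are in FPKM, fragments scaled to gene length and library total, so that genes of different length may be compared. Comparison between libraries is limited, since abundant transcripts such as haemoglobin lower the values of all others. Read depth is unknown. All values of 1 artery summed to 285679 to 433477 FPKM, those of 1 kidney to 376270 to 459847. Tissue markers followed the labels: 8 smooth muscle genes summed to 1416 to 2890 FPKM in the arteries and 37.3 to 77.3 in the kidneys, and 8 tubule genes to 81.1 to 127 and 2792 to 3602. The arteries also held fat cell transcripts, 8 genes summing to 1857 to 3577 FPKM against 25.4 to 36.7 in kidney. Haemoglobin transcripts took 28.2% of the summed FPKM in wild-type artery 4 and 1.38% to 10.4% in the other arteries. Gut epithelium markers summed to 41.4 FPKM in wild-type artery 1 and at most 4.78 in the other arteries, and B cell markers to 219 in wild-type artery 3 and 141 in deletion artery 2 against 6.87 to 56.5 in the other arteries. Wild-type kidney 3 went against its male title: Xist, the RNA that coats a silenced X chromosome, was at 81.1 FPKM in it and at 0.0989 to 1.30 elsewhere, and the Y-linked Eif2s3y was listed at 0 in it and at 24.1 to 39.6 elsewhere. Results are therefore also given without these libraries.

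In the arteries, 37 of the 38 genes were lower in the deletion group by their fitted value, Ifi27 being the exception, while 40.3% of the 16470 genes measured in artery were lower. Zbp1, among the 37, reached the mean of 0.5 FPKM needed for the fit only through the wild-type arteries (mean 0.847 against 0.252). The median log2 difference, on the log2(FPKM + 0.5) scale, was -0.37 over the 38 genes and 0.04 over all genes. It ran from -1.20 for Rsad2 to 0.06 for Ifi27. Limma called 0 of the 16470 genes at an adjusted p under 0.05 (0.00%; 863 at an unadjusted p under 0.05). Since this contrast was known when the genes were proposed, the counts describe them and support nothing. In bulk tissue, fewer cells of a type and less RNA per cell cannot be told apart.

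The mean log2 level of the 38 genes was 3.71, 3.33, 3.76 and 4.18 in wild-type arteries 1 to 4, and 3.20, 3.42, 3.24 and 3.31 in deletion arteries 1 to 4. The groups overlapped, since wild-type artery 2 lay below deletion artery 2. Wild-type artery 4 was the highest of the 8 libraries for 26 of the 38 genes, against 6.25% of all genes. The wild-type arteries also scattered more: the SD of the log2 level was larger in them than in the deletion arteries for 33 of the 38 genes, against 51.8% of all genes. Without wild-type artery 4 the median was -0.26 with 36 of 38 genes lower. It was -0.40 with 38 of 38 lower without wild-type artery 1, -0.35 with 36 of the 37 still measured without wild-type artery 3, and -0.43 with 37 of 38 without deletion artery 2. Scaled to a common sum without haemoglobin and the small cytoplasmic RNA Rn7sl1, it was -0.37 with 37 of 38 lower.

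**Figure D1:**
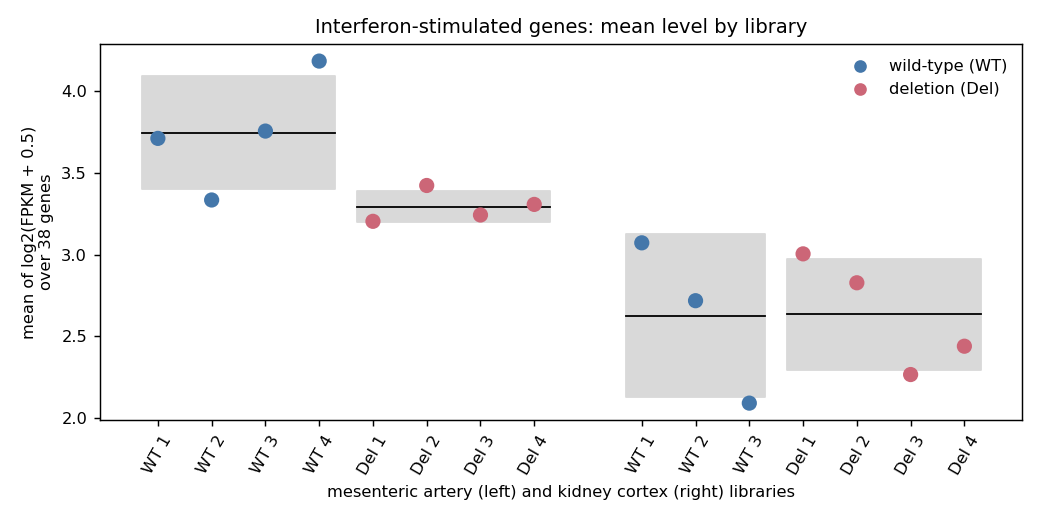
Mean log2(FPKM + 0.5) over the 38 interferon-stimulated genes in each of the 15 libraries (points), with the mean (line) and 1 SD either side (grey box) of each group. Wild-type artery 4 stands highest at 4.18 and wild-type kidney 3 lowest at 2.09; the deletion arteries lie close together between 3.20 and 3.42, with 3 of the 4 under the lowest wild-type artery at 3.33.

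Several lists of immune cell markers were mostly lower in the deletion arteries, as the 38 genes were, and the B cell list was mixed. Over all genes 40.3% were lower and 0 were called. Of the 10 macrophage markers all were lower in the deletion arteries by fitted value (median log2 -0.25), as were all 10 T and NK cell markers (median -0.39) and 9 of 10 neutrophil and mast cell markers (median -0.75); limma called none of these. Of 9 B cell markers 5 were lower and 4 higher (median -0.13, highest 1.32), also with none called. Macrophage markers summed to 236, 281, 644 and 503 FPKM in wild-type arteries 1 to 4 and to 217, 299, 422 and 276 in deletion arteries 1 to 4, with none at 0. A large part of each sum was the single gene Lyz2. It stood at 84.6, 146, 341 and 351 FPKM in the wild-type and 95.9, 157, 177 and 153 in the deletion arteries. T and NK cell markers summed to 24.5 to 120 FPKM in wild-type and 18.1 to 60.1 in deletion arteries, also with none at 0. In the libraries with low sums most of this was Cd4, at 14.7 to 33.3 in wild-type and 12.5 to 24.0 in deletion arteries. Cd3e stood at 1.27 to 15.5 and 0.514 to 7.06. The 9 dendritic cell markers that are not among the 38 genes summed to 52.1 to 77.5 and 46.9 to 58.5 FPKM, and 13 erythroid genes were all lower (median -0.96). Other lists went the other way: all 8 fat cell markers (median 0.21) and all 8 smooth muscle markers (median 0.15) were higher in the deletion arteries. Endothelial markers were mixed, with 3 lower and 5 higher (median 0.02), and the 6 gut epithelium markers measured were all lower (median -0.73). Limma called none of them. The ranges of the genotypes overlapped for each of these lists. Library by library the sums did not always follow the 38 genes. Wild-type artery 1, where the mean log2 level of the 38 genes was 3.71, had a macrophage sum of 236 FPKM. Deletion artery 3, where it was 3.24, had 422. The part of these lists in the artery values was not tested.

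The relay group held 5 genes, all with negative artery values (median -0.58, range -0.85 to -0.25). Irf7, the transcription factor that amplifies interferon production (rn7 chromosome 1, 196367380 to 196370943, minus strand), stood at 23.96, 20.5, 31.8 and 71.8 FPKM in wild-type arteries 1 to 4 against 14.9, 22.4, 16.98 and 29.9 in deletion arteries 1 to 4. In kidney, Irf7 stood at 21.7, 15.7 and 6.67 in wild-type 1 to 3 and at 16.6, 11.7, 8.70 and 10.6 in deletion 1 to 4. Wild-type artery 4 held by far its highest value, and the genotypes overlapped in both tissues. The artery log2 difference of Irf7 was -0.67 (SE 0.37) with wild-type artery 4 and -0.29 without it.

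Stat2, the signal transducer that enters the nucleus with Irf9 (chromosome 7, 702565 to 718349, plus strand), stood at 12.9, 12.7, 15.5 and 15.8 FPKM in the wild-type against 12.4, 12.05, 10.9 and 11.99 in the deletion arteries, where the highest deletion value lay under the lowest wild-type value. In kidney, Stat2 stood at 10.7, 9.24 and 6.31 in wild-type against 11.02, 9.21, 7.52 and 7.99 in deletion libraries, which overlapped. Irf9, its DNA-binding partner (chromosome 15, 29095474 to 29101924, plus strand), stood at 17.3, 16.1, 17.8 and 19.5 in wild-type arteries, and deletion artery 2 matched their upper end (13.96, 19.4, 10.9 and 16.2 in deletion arteries 1 to 4). In kidney, Irf9 stood at 10.03, 7.53 and 6.72 in wild-type against 8.77, 8.64, 5.44 and 7.68 in deletion libraries. Both tissues thus showed overlap of the genotypes for Irf9. Usp18, which removes Isg15 from proteins and damps the receptor (chromosome 4, 154471634 to 154499154, plus strand), stood at 9.32, 5.83, 12.4 and 15.2 FPKM in wild-type against 5.30, 7.16, 4.62 and 4.76 in deletion arteries, with wild-type artery 2 inside the deletion range. In kidney, Usp18 stood at 6.34, 3.43 and 1.39 in wild-type against 4.29, 3.08, 2.38 and 2.44 in deletion libraries, wild-type kidneys 1 and 3 marking the ends of the range. Isg15, the ubiquitin-like modifier, averaged 7.41 ± 2.996 (SD, n = 4) in wild-type against 4.60 ± 1.10 (SD, n = 4) in deletion arteries.

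Of the 6 RNA sensors and their cofactors, all had negative artery values (median -0.44). Rig1, the helicase that recognises RNA with a triphosphate end (chromosome 5, 55321351 to 55369947, minus strand), stood at 16.5, 10.01, 13.7 and 16.3 FPKM in wild-type against 10.2, 9.40, 10.2 and 8.66 in deletion arteries, where wild-type artery 2 lay inside the deletion range. In kidney, Rig1 stood at 10.7, 9.01 and 7.002 in wild-type against 10.4, 8.87, 9.30 and 7.08 in deletion libraries. Ifih1, the sensor of long double-stranded RNA (chromosome 3, 47228980 to 47275403, minus strand), stood at 9.55, 7.31, 10.04 and 11.6 in wild-type against 6.86, 6.14, 7.72 and 6.32 in deletion arteries, again with overlap at wild-type artery 2. In kidney, Ifih1 stood at 5.57, 4.32 and 3.51 in wild-type against 6.60, 6.11, 4.10 and 4.16 in deletion libraries. Wild-type kidney 3 was the lowest kidney for both sensors. Dhx58, a helicase that tunes the other sensors (chromosome 10, 85620352 to 85631776, minus strand), stood at 3.84, 3.11, 5.27 and 5.47 in wild-type against 3.10, 3.18, 2.66 and 3.51 in deletion arteries. In kidney, Dhx58 stood at 4.55, 4.18 and 3.47 in wild-type against 4.72, 3.51, 3.23 and 2.57 in deletion libraries, close to its artery level.

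Trim25, the ubiquitin ligase that activates Rig1 (chromosome 10, 73812818 to 73831271, plus strand), differed little: it stood at 13.6, 13.8, 13.98 and 13.9 FPKM in wild-type against 11.97, 14.9, 13.2 and 12.4 in deletion arteries. In kidney, Trim25 stood at 16.1, 15.98 and 14.2 in wild-type against 17.2, 16.4, 16.3 and 16.6 in deletion libraries, where each deletion library lay above each wild-type one. Rtp4 (chromosome 11, 77237341 to 77249194, minus strand), a zinc finger protein that damps the interferon response, stood at 17.4, 11.01, 15.7 and 24.9 in wild-type arteries and, with deletion artery 2 apart from the others, at 12.2, 19.9, 12.1 and 10.7 in deletion arteries. In kidney, Rtp4 stood at 5.62, 5.29 and 2.27 in wild-type against 7.48, 4.31, 3.06 and 4.53 in deletion libraries. Zbp1, the sensor of left-handed nucleic acid, was at a mean of 0.847 ± 0.612 (SD, n = 4) FPKM in wild-type against 0.252 ± 0.0692 (SD, n = 4) in deletion arteries, and in kidney it lay under the 0.5 FPKM mean needed for a test. Its mean was 0.549 over the arteries and 0.501 over all 15 libraries, just above that limit.

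The 11 effectors that bind or degrade RNA had a median artery value of -0.59. Rsad2 (viperin), which makes a chain-terminating nucleotide (chromosome 6, 43046514 to 43059737, minus strand), stood at 26.6, 13.2, 7.49 and 198 FPKM in wild-type against 5.98, 9.59, 11.4 and 26.6 in deletion arteries, so that wild-type artery 4 was far above every other artery, while wild-type arteries 2 and 3 lay inside the deletion range and wild-type artery 1 at its upper edge. Its artery log2 difference was -1.20 (SE 0.88) and -0.25 without wild-type artery 4. In kidney, Rsad2 stood at 8.74, 5.45 and 2.48 in wild-type against 6.91, 9.37, 4.34 and 5.57 in deletion libraries. Cmpk2, the nucleotide kinase whose gene is the neighbour of Rsad2 (chromosome 6, 43073706 to 43085183, plus strand), was also highest in wild-type artery 4, at 17.5 FPKM, and its artery log2 difference was -0.57 with and -0.06 without that library.

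Ifit2, a binder of foreign RNA (chromosome 1, 232102570 to 232108638, plus strand), stood at 18.4, 14.4, 16.5 and 30.1 FPKM in wild-type against 11.9, 12.8, 12.4 and 11.5 in deletion arteries, which did not overlap. In kidney, Ifit2 stood at 6.76, 4.71 and 2.57 in wild-type against 5.75, 6.65, 3.24 and 3.72 in deletion libraries, which did. Its neighbours Ifit3 and Ifit1 lie within the same stretch of chromosome 1 (232114166 to 232119311 and 232152038 to 232154103) and had artery log2 differences of -0.61 and -0.03. Without wild-type artery 4, which held the highest level of both, these were -0.24 and 0.09. Eif2ak2, the kinase PKR that halts translation (chromosome 6, 16189000 to 16224972, plus strand), stood at 18.95, 13.3, 14.96 and 19.8 in wild-type against 13.2, 12.6, 12.9 and 11.5 in deletion arteries, the lowest wild-type value lying just above the highest deletion value. In kidney, Eif2ak2 stood at 11.4, 9.79 and 6.81 in wild-type against 11.7, 10.3, 8.59 and 8.82 in deletion libraries. The kidney genotypes overlapped for it. Adar, the enzyme that edits adenosine in double-stranded RNA (chromosome 2, 175138391 to 175178280, plus strand), varied little in artery, at 14.3, 12.9, 16.4 and 15.03 in wild-type against 12.9, 13.4, 12.9 and 14.2 in deletion libraries. In kidney, Adar stood at 12.6, 9.63 and 7.84 in wild-type against 14.2, 12.9, 9.73 and 9.15 in deletion libraries.

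The oligoadenylate synthetases, which activate a ribonuclease when they meet double-stranded RNA, lie together on chromosome 12 (Oas1a from 35669798, Oas3 from 35779028, Oas2 from 35802824). Oas2 averaged 2.51 ± 0.942 (SD, n = 4) in wild-type against 1.08 ± 0.154 (SD, n = 4) in deletion arteries, which did not overlap. Oas1a averaged 9.18 ± 2.70 (SD, n = 4) and 6.04 ± 1.01 (SD, n = 4), and Oas3 2.19 ± 0.749 (SD, n = 4) and 1.25 ± 0.229 (SD, n = 4). Oasl, a relative without synthetase activity, averaged 2.53 ± 1.41 (SD, n = 4) in wild-type against 1.19 ± 0.208 (SD, n = 4) in deletion arteries. The Oas, Ifit and Mx genes have close relatives in the genome, and the counting rules for shared reads are not given in the sources used here, so the split between relatives is uncertain.

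The 5 membrane and large GTPase effectors had artery values from -1.02 for Mx1 to -0.04 for Ifitm3. Mx2, a GTPase that traps viral particles (chromosome 11, 36905698 to 36936308, plus strand), stood at 30.97, 14.1, 18.6 and 33.5 FPKM in wild-type against 12.3, 13.3, 12.03 and 11.98 in deletion arteries, where the deletion values were close together and all lower. In kidney, Mx2 stood at 15.95, 8.60 and 4.17 in wild-type against 13.3, 9.43, 4.78 and 6.08 in deletion libraries, with wild-type kidneys 1 and 3 at the ends. Mx1, its relative on the same chromosome, averaged 17.7 ± 9.80 (SD, n = 4) in wild-type against 7.58 ± 2.88 (SD, n = 4) in deletion arteries, with a log2 difference of -1.02 (SE 0.45). Gbp2, a guanylate-binding protein of cell-autonomous defence (chromosome 2, 231332488 to 231348573, plus strand), stood at 24.2, 22.2, 22.99 and 35.1 in wild-type against 21.6, 21.4, 22.3 and 18.3 in deletion arteries. In kidney, Gbp2 stood at 5.87, 4.33 and 2.76 in wild-type against 6.26, 5.97, 3.67 and 3.78 in deletion libraries, all far under the arteries.

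Ifitm3 and Bst2, both membrane proteins that block virus entry or release, differed little between the artery genotypes. Ifitm3 (chromosome 1, 196111026 to 196112135, minus strand) stood at 100.3, 118, 95.4 and 115 FPKM in wild-type against 103, 101, 117 and 94.3 in deletion arteries. In kidney, Ifitm3 stood at 30.6, 27.7 and 20.7 in wild-type against 27.1, 22.99, 17.98 and 25.2 in deletion libraries. Each artery held more of it than each kidney. Bst2 (chromosome 16, 18216605 to 18220979, minus strand) stood at 15.5, 20.1, 18.6 and 15.8 in wild-type against 14.02, 19.2, 16.2 and 17.9 in deletion arteries. In kidney, Bst2 stood at 11.4, 12.8 and 13.2 in wild-type against 11.7, 10.7, 6.71 and 9.43 in deletion libraries, where wild-type kidney 3 was the highest, unlike for most of the other genes.

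All 6 genes of ADP-ribosylation and ubiquitin ligases had negative artery values, from -0.82 to -0.31. Parp9, Dtx3l and Parp14, which act in ADP-ribosylation and ubiquitin signalling, lie close together on chromosome 11. Parp9 (64780977 to 64814995, minus strand) and Dtx3l (64814926 to 64824539, plus strand) overlap at their starts, and since the counting rules for strand are not given in the sources used here, reads from the overlap cannot be assigned. Parp9 stood at 24.7, 22.04, 24.7 and 28.2 FPKM in wild-type against 20.3, 22.6, 19.2 and 17.5 in deletion arteries, overlapping at wild-type artery 2 and deletion artery 2. In kidney, Parp9 stood at 11.3, 10.7 and 7.01 in wild-type against 13.5, 12.1, 7.76 and 8.83 in deletion libraries. Wild-type kidney 3 was its lowest library. Dtx3l overlapped between the same 2 arteries, at 19.9, 16.4, 20.3 and 25.9 in wild-type against 16.2, 18.4, 16.2 and 14.4 in deletion arteries. In kidney, Dtx3l stood at 8.56, 6.94 and 3.84 in wild-type against 9.28, 9.16, 5.94 and 5.62 in deletion libraries.

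Parp14 (chromosome 11, 64902848 to 64934916, plus strand) stood at 30.8, 25.4, 33.9 and 34.7 FPKM in wild-type against 24.1, 28.98, 23.01 and 23.6 in deletion arteries. In kidney, Parp14 stood at 18.3, 17.2 and 10.8 in wild-type against 19.6, 21.9, 12.2 and 14.03 in deletion libraries. Its genotypes overlapped in both tissues. Parp12, an ADP-ribosyltransferase of stressed and infected cells (chromosome 4, 67826548 to 67885356, minus strand), stood at 12.96, 11.8, 15.98 and 17.9 in wild-type against 12.3, 12.3, 10.6 and 10.02 in deletion arteries. In kidney, Parp12 stood at 14.4, 12.8 and 9.66 in wild-type against 15.1, 13.2, 11.4 and 11.7 in deletion libraries, near its artery level. Herc6, the ligase thought to attach Isg15 in rodents, averaged 20.6 ± 5.17 (SD, n = 4) in wild-type against 11.3 ± 1.85 (SD, n = 4) in deletion arteries, and Trim21, a cytosolic antibody receptor and ligase, 13.7 ± 2.89 (SD, n = 4) and 10.4 ± 1.06 (SD, n = 4); neither overlapped between genotypes.

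Among the 5 other induced proteins, Ifi27 was the gene of the 38 that was higher in the deletion arteries. Ifi27 (chromosome 6, 122590461 to 122596996, plus strand) stood at 103, 130.4, 159 and 167 FPKM in wild-type against 108, 197, 140.2 and 143 in deletion arteries, with wide overlap. In kidney, Ifi27 stood at 107, 127 and 89.4 in wild-type against 99.8, 64.8, 57.9 and 91.6 in deletion libraries. Sp100, a protein of nuclear bodies that silence viral DNA (chromosome 9, 86310990 to 86377036, plus strand), stood at 43.6, 37.3, 39.02 and 34.95 in wild-type against 29.6, 33.9, 30.2 and 28.1 in deletion arteries, which did not overlap, and was highest in wild-type artery 1, not 4. In kidney, Sp100 stood at 7.08, 4.94 and 3.29 in wild-type against 6.55, 7.81, 3.11 and 4.25 in deletion libraries. The highest kidney was far under the lowest artery. Ifi44 (chromosome 2, 240626058 to 240643879, minus strand) stood at 23.3, 20.2, 30.5 and 23.9 in wild-type against 16.5, 22.8, 19.3 and 17.2 in deletion arteries, highest in wild-type artery 3. In kidney, Ifi44 stood at 14.2, 7.29 and 4.003 in wild-type against 11.99, 9.31, 4.85 and 6.76 in deletion libraries. Ifi35, which binds Nmi (chromosome 10, 86381023 to 86389279, plus strand), stood at 7.99, 7.97, 10.3 and 11.3 in wild-type against 7.66, 9.67, 8.34 and 8.18 in deletion arteries, and in kidney at 11.5, 12.7 and 8.83 in wild-type against 13.5, 9.004, 9.36 and 12.1 in deletion libraries. Xaf1, which promotes cell death, averaged 10.6 ± 2.21 (SD, n = 4) in wild-type against 8.42 ± 1.20 (SD, n = 4) in deletion arteries.

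**Figure D2:**
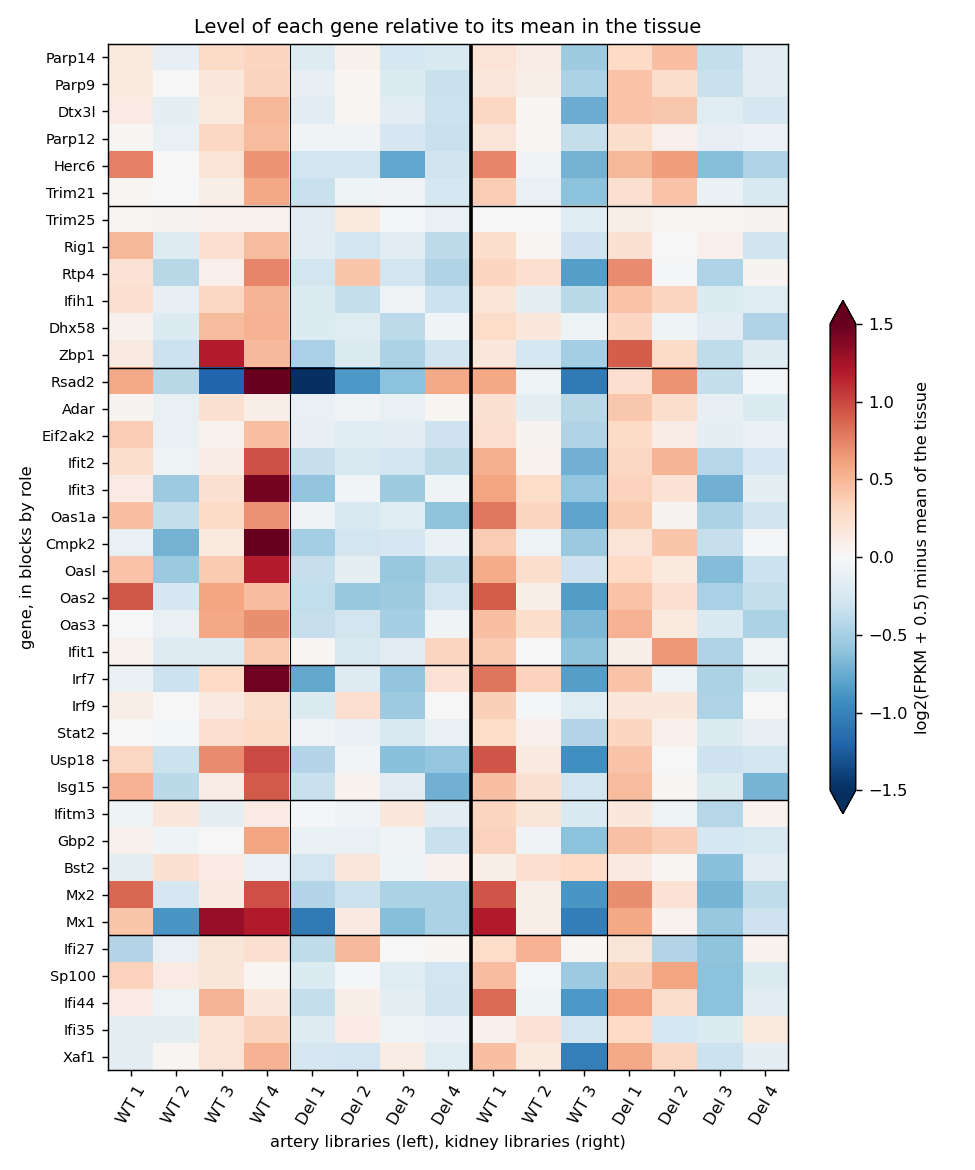
Each row is 1 of the 38 genes, in blocks by role, and each column a library; colour is log2(FPKM + 0.5) minus the mean of that gene over the libraries of the tissue, with values beyond 1.5 either way drawn in the end colours. The column of wild-type artery 4 is high for most genes, the deletion arteries are low for most, and wild-type kidney 3 is low while wild-type kidney 1 and deletion kidney 1 are high.

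In all, each of the 4 deletion arteries lay below each of the 4 wild-type arteries for 8 genes (Trim21, Ifit2, Herc6, Eif2ak2, Stat2, Sp100, Mx2 and Oas2), against 0.953% of all genes. None showed the opposite order (2.30% of all genes). Because the contrast was known beforehand, nothing is read from these counts.

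In kidney, limma called none of the 37 genes that could be tested, and 0 of all 15444 genes (0.00%; 217 at an unadjusted p under 0.05, none of the 37 among them). The median log2 difference was 0.05 over the 37 genes and 0.04 over all genes, and 16 of the 37 were lower against 39.8% of all genes. The median changed sign with the scaling, at -0.03 with median-of-ratios scaling and -0.02 with quantile normalization. The median of all genes was then -0.03 and 0.003. The lowest value was that of Ifi27 at -0.47 (SE 0.23, limma adjusted p = 0.999), followed by Bst2 at -0.38 (SE 0.18, limma adjusted p = 0.999). The highest was that of Rsad2 at 0.31 (SE 0.36, limma adjusted p = 0.999), which was -0.12 without wild-type kidney 3. Intervals were wide: for Mx2 the log2 difference was -0.09 with a 95% confidence interval of -1.06 to 0.87, for Usp18 -0.09 (-0.96 to 0.77), for Rig1 0.01 (-0.38 to 0.40), for Ifih1 0.20 (-0.28 to 0.69) and for Ifit2 0.08 (-0.63 to 0.79).

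The direction in kidney rested on single libraries. The mean log2 level of the 38 genes was 3.07, 2.72 and 2.09 in wild-type kidneys 1 to 3 and 3.004, 2.83, 2.27 and 2.44 in deletion kidneys 1 to 4, giving group means of 2.63 ± 0.497 (SD, n = 3) and 2.63 ± 0.341 (SD, n = 4). Wild-type kidney 3, the library that went against its title, was the lowest for 28 of the 37 genes, against 32.6% of all genes. Without it, 34 of the 37 genes were lower in the deletion group and the median was -0.20, still with 0 called. Of all genes 49.5% were then lower (median 0.002). Without wild-type kidney 1, 6 were lower and the median was 0.26, against 36.1% of all genes (median 0.09). Leaving out deletion kidney 1 gave 25 lower (median -0.07), against 43.8% of all genes (median 0.03). Leaving out deletion kidney 3 gave 10 lower (median 0.12), against 35.2% of all genes (median 0.08). Wild-type kidney 3 also had the lowest sums of macrophage markers (126 FPKM against 150 to 230 in the other kidneys), of T and NK cell markers (12.5 against 13.4 to 22.4) and of dendritic cell markers (12.6 against 16.7 to 27.0). Much of the first 2 sums was Lyz2 (87.7 against 106 to 164) and Cd4 (6.14 against 6.45 to 11.9). The part of these markers in the level of the 38 genes in that library was not tested.

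**Figure D3:**
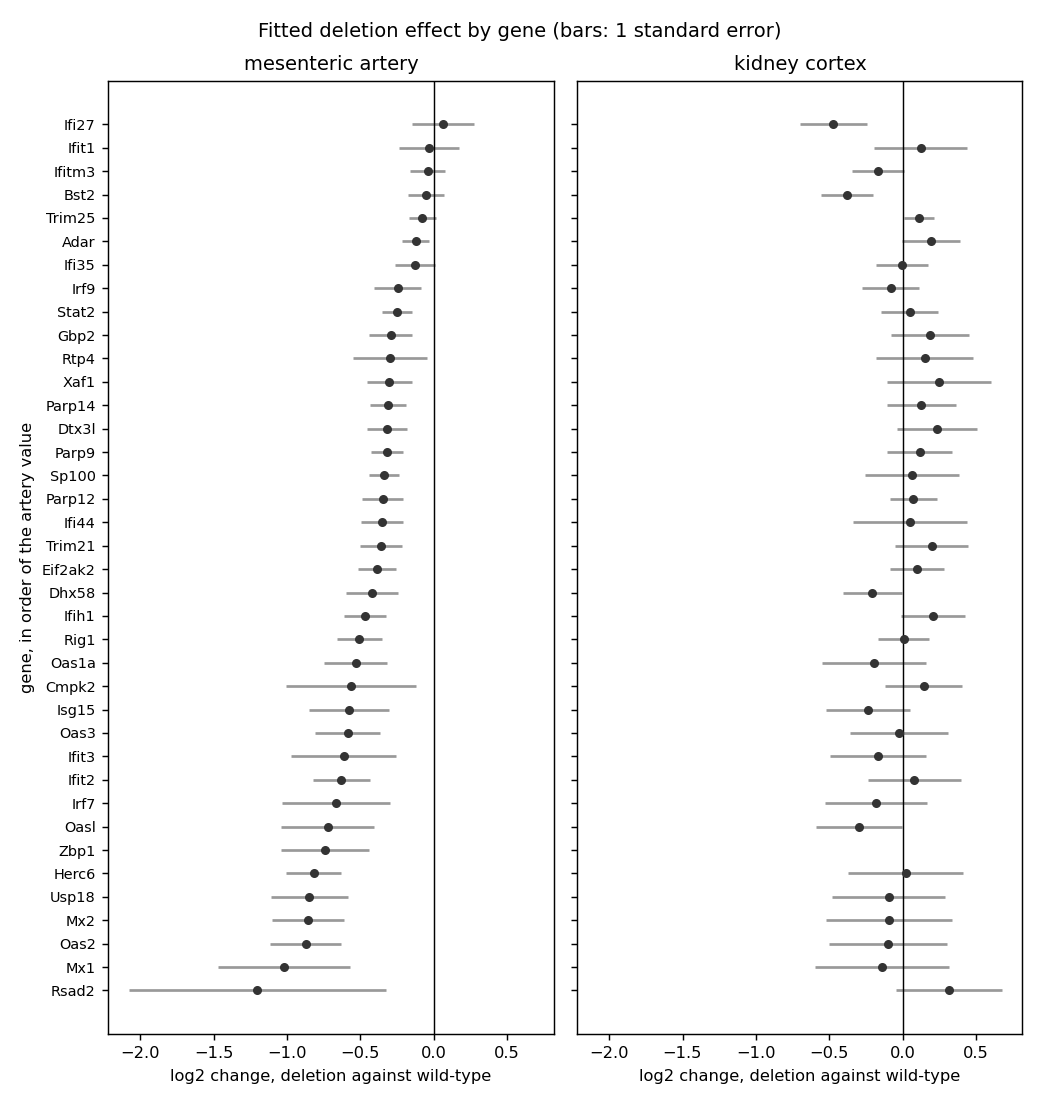
Fitted log2 difference, deletion against wild-type, of each gene in mesentery artery (left) and kidney cortex (right), in the order of the artery value, with bars of 1 standard error; Zbp1 has no kidney point because its mean there was under 0.5 FPKM. All artery points but that of Ifi27 lie below 0, from -0.03 to -1.20, and the kidney points lie on both sides of 0.

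The deletion libraries exceeded all the wild-type kidneys for 1 gene, Trim25 (1.54% of all genes), and lay below them for 0 (1.01% of all genes). The difference of the deletion effect between the tissues, tested as an interaction over the 15 libraries, was called for 0 of 16856 genes (0.00%; 740 at an unadjusted p under 0.05). Its artery side was known when the genes were proposed, so their own interaction values are not read.

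Between the tissues, 30 of the 38 genes were higher in artery at a limma adjusted p under 0.05, against 41.8% of the 16856 genes tested. Trim25 and Ifi35 were higher in kidney, against 35.2% of all genes. The median log2 difference, artery against kidney, was 0.82 over the 38 genes and 0.11 over all genes. All 5 relay genes were higher in artery, as were 9 of 11 RNA effectors, 5 of 6 ADP-ribosylation and ubiquitin genes, 4 of 5 membrane and GTPase genes, 4 of 5 other induced proteins and 3 of 6 sensors and cofactors. Each artery library lay above each kidney library for 13 genes (25.5% of all genes did so), and the reverse held for none (24.4%). Without wild-type kidney 3, 28 of the 38 genes were called higher in artery, with a median of 0.67, and without wild-type artery 4, 29 of the 37 still measured, with a median of 0.77.

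The widest gap was that of Sp100, which averaged 34.6 ± 5.27 (SD, n = 8) FPKM in artery and 5.29 ± 1.88 (SD, n = 7) in kidney, a log2 difference of 2.66 (SE 0.17, limma adjusted p = 7.64e-10) or 6.31-fold. Gbp2 averaged 23.5 ± 4.97 (SD, n = 8) and 4.66 ± 1.37 (SD, n = 7), a log2 difference of 2.25 (SE 0.16, limma adjusted p = 1.94e-09). Ifitm3 averaged 106 ± 9.66 (SD, n = 8) and 24.6 ± 4.35 (SD, n = 7), a log2 difference of 2.08 (SE 0.11, limma adjusted p = 5.29e-11). For these 3 genes no kidney library reached the lowest artery. Rtp4 and Ifit2 followed, at 3.16-fold and 3.13-fold. Rsad2 was 2.99-fold higher in artery (limma adjusted p = 0.0161), with a 95% confidence interval of 1.33 to 6.74.

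At the other end, Trim25 averaged 13.5 ± 0.949 (SD, n = 8) FPKM in artery and 16.1 ± 0.954 (SD, n = 7) in kidney, a log2 difference of -0.24 (SE 0.06, limma adjusted p = 0.00242), and Ifi35 8.92 ± 1.31 (SD, n = 8) and 11.01 ± 1.92 (SD, n = 7), a difference of -0.28 (SE 0.12, limma adjusted p = 0.0347). With FPKM scaled to a common sum without haemoglobin and Rn7sl1 both turned positive, at 0.10 and 0.05, and neither was called; 33 of the 38 genes were then higher in artery and 0 higher in kidney. Among all genes that scaling called 9183 higher and 4227 lower in artery, against 7045 and 5941 without it, and it moved the median of all genes to 0.43 and that of the 38 genes to 1.14. Parp12 (0.04, 95% confidence interval -0.20 to 0.27), Oasl (0.03, -0.46 to 0.51), Dhx58 (-0.02, -0.31 to 0.27) and Zbp1 (0.14, -0.35 to 0.63) did not pass the test in either direction. Mx1 and Oas2 missed it narrowly, with limma adjusted p of 0.0511 and 0.0543.

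**Figure D4:**
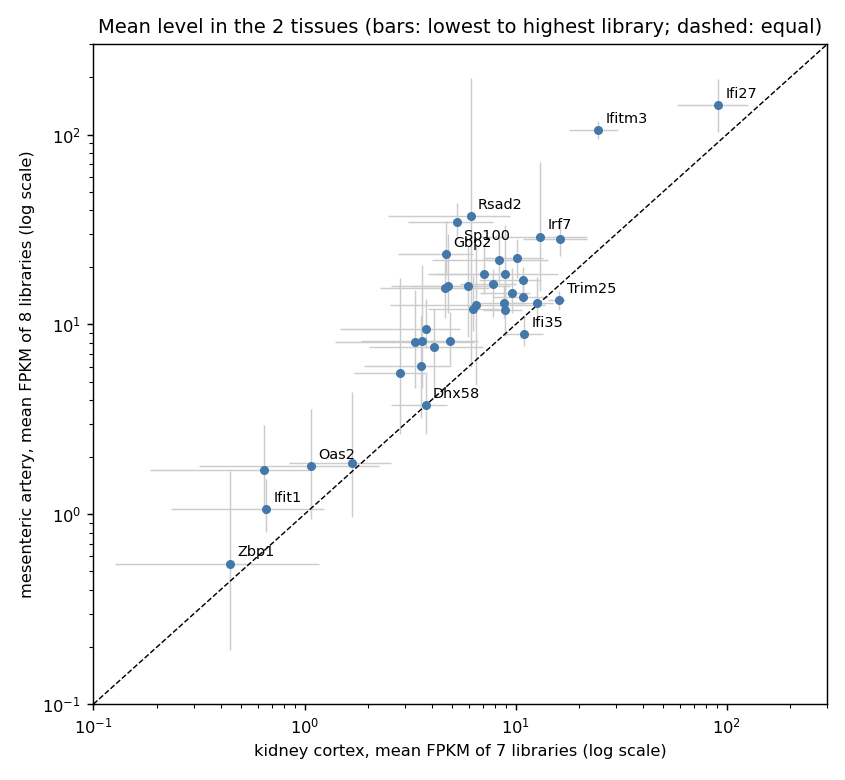
Mean FPKM of each of the 38 genes in kidney cortex (7 libraries, horizontal) and mesentery artery (8 libraries, vertical), both on log scales, with bars from the lowest to the highest library and a dashed line of equal levels. Most genes lie above the line, Sp100, Rsad2, Gbp2 and Ifitm3 farthest, Rsad2 with a bar reaching up to 198 FPKM in wild-type artery 4, while Trim25 and Ifi35 lie just below it and Dhx58 on it.

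Markers of other cell types also differed between the tissues. Macrophage markers summed to 217 to 644 FPKM in artery and 126 to 230 in kidney, where 1 marker was at 0 in deletion kidney 3, T and NK cell markers to 18.1 to 120 and 12.5 to 22.4, and endothelial markers to 428 to 568.3 and 88.8 to 141. Within these sums Lyz2 alone stood at 84.6 to 351 in artery and 87.7 to 164 in kidney, and Cd4 at 12.5 to 33.3 and 6.14 to 11.9. Limma called 9 of 10 macrophage markers, 8 of 10 T and NK cell markers and 8 of 8 endothelial markers higher in artery. Of all genes 41.8% were called higher in artery. Their part in the tissue difference was not tested.

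The rest of the interferon system was measured from lists of other genes. Of the ligands, Ifnb1 was listed at 0 in all 15 libraries, and Ifng at 0 in all but deletion artery 3, wild-type kidney 3 and deletion kidney 2, where it was at most 0.069 FPKM. Between 7 and 10 of the 11 listed ligand genes were at 0 in a library. The ligand genes summed to 0.788 to 3.68 FPKM in an artery and 0.840 to 4.61 in a kidney. Only 1 ligand, Ifnk, reached the mean of 0.5 FPKM needed for a test in artery and in kidney. Its log2 difference between the genotypes was 0.15 in artery and 0.56 in kidney, and neither was called. Ifnar1 and Ifnar2, the type I receptor chains, were well measured: Ifnar1 stood at 28.6, 28.2, 34.7 and 32.3 FPKM in wild-type against 31.3, 28.3, 34.8 and 28.9 in deletion arteries, with the genotypes overlapping. In kidney, Ifnar1 stood at 15.4, 14.4 and 12.8 in wild-type against 15.3, 16.9, 13.5 and 13.4 in deletion libraries. Ifnar2 stood at 12.3, 13.1, 11.6 and 10.9 in wild-type against 12.7, 11.6, 11.4 and 12.7 in deletion arteries, and in kidney at 5.27, 4.97 and 4.53 in wild-type against 5.42, 6.99, 4.63 and 4.83 in deletion libraries. Both chains were higher in artery, at log2 differences of 1.07 (limma adjusted p = 5.62e-09) and 1.15 (limma adjusted p = 6.12e-09). Of 6 receptor genes, 5 were higher in artery than in kidney and 1, Il10rb, was higher in kidney by the same test. The shares over all genes were 41.8% and 35.2%.

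Irf1, a factor induced by interferon gamma, stood at 14.3, 15.4, 19.4 and 21.6 FPKM in wild-type against 16.2, 15.7, 14.8 and 16.98 in deletion arteries. In kidney, Irf1 stood at 7.89, 6.97 and 5.62 in wild-type against 8.73, 10.99, 6.02 and 6.32 in deletion libraries. The genotypes overlapped in both tissues for Irf1. The 14 genes of the signalling relay outside the 38 had a median log2 difference of -0.09 between the artery genotypes with 10 lower, and the 18 genes of nucleic acid sensing -0.10 with 13 lower. The 6 receptor genes had a median of -0.02. Over all genes the artery median was 0.04, with 40.3% lower. In kidney the medians were 0.11, 0.21 and, over 5 receptor genes, 0.13, against 0.04 over all genes. Limma called none of these genes, and 0 of all genes, in either tissue.

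A further list of interferon-stimulated genes outside the 38 held 66 genes of the table, 64 of them measured in artery. Their median log2 difference between the artery genotypes was -0.27, with 58 of 64 lower, against 0.04 and 40.3% lower over all genes. In kidney it was 0.04 over 62 genes with 24 lower, against 0.04 and 39.8% lower over all genes. Limma called 0 in both, as over all genes. This list too was chosen with earlier results of these data known, so its artery counts are a description. Between the tissues 46 of 64 were higher in artery by the test, against 41.8% of all genes, and 8 higher in kidney, against 35.2%. Of their RefSeq promoter windows, 33 of 57 (57.9%) held the core letters of the response element, as did 0 of 6 windows of the receptor genes.

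The genes outside the 38 whose log2 level ran most nearly with the mean of the 38 over the 8 arteries were Oas1b (Pearson r 0.96), Plcl2 (0.94), Samd9 (0.94), MGC105567 (0.94), Znfx1 (0.93), LOC120099363 (0.92), LOC102551165 (0.92), LOC120093070 (0.90), LOC102551211 (0.90) and Il2ra (0.90). Oas1b, Samd9 and Znfx1 stand on the further list. The r values rest on 8 libraries, of which wild-type artery 4 was the highest in the mean of the 38 genes, and without wild-type arteries 3 and 4 the r of Oas1b was 0.87, that of Samd9 0.81 and that of Plcl2 0.70. These genes were picked for running with the 38 genes in the arteries, so nothing is read from their order by genotype. Samd9 stood at 19.1, 13.7, 22.2 and 27.3 FPKM in wild-type against 12.6, 12.5, 12.6 and 10.2 in deletion arteries. Its deletion values all lay below its wild-type values, as for 0.953% of all genes. Oas1b, another oligoadenylate synthetase, stood at 4.77, 2.53, 5.64 and 7.58 in wild-type against 2.99, 3.86, 2.38 and 2.82 in deletion arteries, highest in wild-type artery 4.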

How the data were processed

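Total RNA, extracted with TRIzol per the labels' protocols, was sequenced from 8 mesentery artery and 7 kidney cortex libraries, grouped by tissue and genotype from the titles. Reads were trimmed with Trim Galore 0.6.2 and aligned with HISAT2 2.2.1 to rn7, and DESeq2 1.46.0 is named too, per the submitters' processing notes. The authors deposited 1 table of FPKM per gene and library, with rn7 coordinates; the tool behind FPKM and its strand setting are not given in the sources used here. A coverage column of the table, a signal the authors deposited with no library named for it, was not used. FPKM is normalized to a library's total, so abundant transcripts such as haemoglobin lower the values of all others; read depth is unknown, so no interval for counting error is given. Of 40694 rows, 34357 carried a gene identifier and were kept.

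Genes whose mean over the libraries compared reached 0.5 FPKM were tested with limma 3.58.1 (R 4.3.3; trend and robust) on log2(FPKM + 0.5), two-sided, with Benjamini-Hochberg adjustment over all genes tested and calls at an adjusted p under 0.05. Fold changes on this scale understate the change of low genes. The fit was also run on simulated data with known changes, but how many of them it recovered is not given here. Artery and kidney were fitted apart, and the tissues were compared in a model of 4 groups. The genes, the other lists and the tests were chosen with earlier results of these data known. Values in every library are given for up to 4 genes of each role by mean FPKM over the 15 libraries, for Mx2, Rig1, Ifih1, Usp18 and Ifit2, for the 3 largest tissue differences in each direction, and for genes higher in the deletion arteries. Likeness to the 38 genes is Pearson r, over libraries, between a gene and their mean log2 level. Alternatives were pseudocounts of 0.1 and 1, no filter or a filter at 1 FPKM, 3 other scalings, array weights, a replicate block and leaving out each library.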

Additional observations from a re-analysis of the deposited data

Results flagged for a closer look

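In 6 of the 117 groups of 4 libraries examined, the highest or lowest library stood apart from the other 3 by Dixon's criterion at the 95% level (gap over range above 0.829); chance gives about 1 in 20. Wild-type artery 4 accounted for 4 of them. In it Rsad2 stood at 198 FPKM with the next wild-type artery at 26.6, and Cmpk2, its neighbour on chromosome 6, at 17.5 with the next at 5.17. Gbp2 stood at 35.1 FPKM there with the next at 24.2, and Trim21 at 18.0 with the next at 12.7. This library also had the largest share of haemoglobin, 28.2% of its summed FPKM, whose part in these values was not tested. Deletion artery 2 stood apart for Rtp4, at 19.9 FPKM with the next deletion artery at 12.2. Deletion artery 3 stood apart on the low side for Herc6, at 8.54 FPKM with the next at 12.1.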

How the results depend on the processing

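In artery the median log2 difference of the measured genes kept its sign under all 17 alternatives, with 35 to 38 genes lower, and 0 were called; Ifi27, Bst2, Ifit1 and Ifitm3 changed sign when some single libraries were left out. In kidney none of these genes was called under the 16 alternatives. The number lower there ran from 6 to 34 as single libraries were left out; the cause was not tested. Without wild-type kidney 3 the value of Rsad2 in kidney turned to -0.12; over the kidney leave-outs it ran from -0.12 to 0.69. Array weights, which let the spread of each library set its influence, called 282 genes of the whole table in kidney (188 higher, 94 lower) and 1 gene of the interferon lists, against 0 without them. Between the tissues 28 to 33 genes were called higher in artery. The number called higher in kidney was 1 with no filter, 0 after rescaling without haemoglobin and Rn7sl1, 1 after quantile normalization and 1 to 2 as libraries were left out. Rescaling turned Ifi35 to 0.052, Trim25 to 0.10 and Dhx58 to 0.29, and Dhx58 ran from -0.081 to 0.048 as libraries were left out. Ifi35 lost its call in 12 of 24 settings, while Mx1 gained one in 6 and Oas2 in 7. The titles do not say that replicate numbers pair the libraries. Correlations of same-numbered deviations were 0.32, -0.34, 0.24 and 0.30 in artery and 0.08, -0.01 and 0.27 in kidney. Differently numbered libraries were not correlated for comparison, so these values cannot settle whether the numbers pair libraries. With a replicate block the artery median was -0.37 with 37 lower and 0 called, the kidney median 0.11 with 13 lower and 0 called, and the tissue counts 30 and 2, Oas2 being called (limma adjusted p = 0.0301). With FPKM alone, low genes such as Zbp1 carry an unknown counting error.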

Other observations

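Over the 7 kidneys, the genes outside the 38 whose log2 level ran most nearly with the mean of the 38 were led by Slfn4 (Pearson r 0.99), with Irgm, Oasl2, Samd9 and Tap1, all on the further list of interferon-stimulated genes, among the top 10. The rest of the top 10 stood on none of the lists: LOC108351606 (0.99, second), Mir181b2, LOC102556116, Asb6 and H1f6 (each 0.98). Tap1, a transporter of peptides for antigen presentation, had an r of 0.98. Samd9 was among the top 10 in artery as well. Without wild-type kidney 3 and deletion kidney 3, the farthest from the median, the r was 0.99 for Slfn4, 0.995 for Oasl2 and 0.96 for Tap1. The r values are descriptions.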
